A study of Mus musculus with 4 samples.

Results

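The genes described are 8 regulators of ubiquitin signalling: Tnfaip3 (the gene of A20), Tnip1, Tnip2, Cyld, Otulin, Rnf31, Rbck1 and Sharpin. They were taken by symbol, and all 8 were found among the 56953 gene rows of the deposited count table. Each also passed the filter on low counts, which kept 14600 genes for testing. They were measured in 4 mouse liver libraries from mice 2 months old on a normal diet, 2 per group. The deletion group carries Ubc13 flox/flox alleles, is labelled albumin (Alb) positive and has a hepatic deletion of Ubc13. The control group carries the same flox/flox alleles, is Alb negative and is labelled WT. Alb positive is read here as a Cre recombinase driven by albumin, which acts in hepatocytes. The labels do not name the recombinase. The labels name liver as the tissue, while their library protocol speaks of primary hepatocytes. They do not say that the 2 libraries of a group came from separate animals, so p-values measure only the spread between these libraries.

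Ubc13, encoded by Ube2n, builds ubiquitin chains linked through lysine 63. Receptors such as the TNF receptor and Toll-like receptors use these chains, together with linear chains, as scaffolds that recruit and activate the kinases of the NF-kB pathway. Linear chains are made by one complex, LUBAC, in which HOIP (Rnf31) is the catalytic subunit and HOIL-1 (Rbck1) and Sharpin are its partners. OTULIN cleaves linear chains, CYLD cleaves both lysine 63 and linear chains, and A20 restrains the pathway with help from its binding proteins ABIN-1 (Tnip1) and ABIN-2 (Tnip2). Tnfaip3 and Tnip1 are themselves NF-kB target genes, so their transcripts serve as feedback.

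The promoters of the genes with the highest fold changes, Tnfaip3 and Tnip1, are shown because both hold stretches that match the NF-kB consensus motif of 10 bases. The windows are RefSeq sequence on GRCm38.p6, from 250 bases before to 50 bases after an annotated start, written 5′ to 3′ on the gene's strand, with matches on either strand in capitals. The Tnfaip3 window lies at chr10:19015361-19015660 on the minus strand, and the Tnip1 window at chr11:54962891-54963190, also on the minus strand.
Tnfaip3: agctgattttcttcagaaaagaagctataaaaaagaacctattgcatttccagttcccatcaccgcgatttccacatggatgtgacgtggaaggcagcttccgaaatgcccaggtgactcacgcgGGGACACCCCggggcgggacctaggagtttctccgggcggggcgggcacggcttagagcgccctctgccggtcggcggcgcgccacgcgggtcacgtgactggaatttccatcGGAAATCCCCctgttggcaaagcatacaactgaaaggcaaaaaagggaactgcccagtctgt
Tnip1: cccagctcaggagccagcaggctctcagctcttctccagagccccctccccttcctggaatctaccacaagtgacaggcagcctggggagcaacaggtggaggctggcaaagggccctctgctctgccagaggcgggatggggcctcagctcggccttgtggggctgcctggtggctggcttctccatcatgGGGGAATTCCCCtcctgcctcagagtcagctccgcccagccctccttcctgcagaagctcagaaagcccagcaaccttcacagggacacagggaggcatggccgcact

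In Tnfaip3 the 2 matching stretches begin 125 and 12 bases before the RefSeq start of this window. In the gene coordinates given below, Tnfaip3 begins at 19015657, near the upstream edge of the window. By those coordinates both stretches lie inside the gene. In Tnip1, overlapping matches on both strands form 1 stretch of 12 bases that begins 58 bases before the start. Of 32817 promoter windows of the same length, 8.46% held at least 1 match. Windows were found for 7 of the 8 genes, and 3 of these held a match, against 9.55% of 26994 genes with a window, the third being Cyld with GGAAAGTCCC beginning 155 bases before its start. A second Tnfaip3 window, at another annotated start, held 0 matches, as did the windows of Tnip2, Otulin, Rnf31 and Rbck1. A match describes letters in a window and says nothing of binding in these livers.

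Library totals ranged from 16927947 to 17114003 counts in the deletion group and from 16270424 to 17800138 in the control group. Values are CPM, the counts scaled to a common library size, with TMM factors that set the libraries against each other through the bulk of genes. The targeted gene Ube2n had 5.88 and 5.97 CPM in deletion replicates 1 and 2, against 41.3 and 44.9 CPM in control replicates 1 and 2 (log2 fold change -2.86 ± 0.16 SE, edgeR adjusted p = 0.00188). Which exons the flox sites flank is not stated, and whether the counted 3' stretch lies inside the deleted part is not known. The libraries also differed in sex-linked RNA. Xist, expressed from the inactive X chromosome, had 9590 and 3896 counts in the deletion libraries, against 9 and 2 in the controls. The summed counts of 4 Y-linked genes were 0 and 1754 in the deletion libraries, against 2312 and 2209 in the controls. Deletion replicate 2 held both Xist and Y-linked RNA, so it mixes RNA of both kinds, while deletion replicate 1 held Xist RNA and 0 Y-linked counts. The deletion libraries therefore differ in their source RNA, and their spread is not technical alone. Whether a library is 1 animal or a pool is not stated, so what n counts is not known. Every difference between groups given here runs along with this one and, without a library of matched sex composition, the contributions of genotype and sex cannot be told apart. Hepatocyte RNA was present in all libraries, with Alb at 4.87% of counts in each deletion library, against 10.8% and 10.3% in the controls.

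Among the 8 genes, Tnip1 rose in the deletion livers and 7 did not pass the test. A gene was called at an edgeR adjusted p under 0.05 over all genes tested, a threshold that 6.57% of genes passed, 4.41% being higher and 2.16% lower in the deletion libraries. Tnfaip3 had the highest fold change of the set but differed more than 4-fold between the deletion libraries. The remaining 6 genes, which include the whole of LUBAC and the deubiquitinases CYLD and OTULIN, had log2 fold changes between -0.24 and 0.32. The median log2 fold change of the 8 genes was 0.17, against -0.0036 over all genes. In 4 of the 8 both deletion libraries lay above both controls, as in 28.7% of all genes, and in 1 both lay below, as in 27.3% of all genes.

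**Figure D1:**
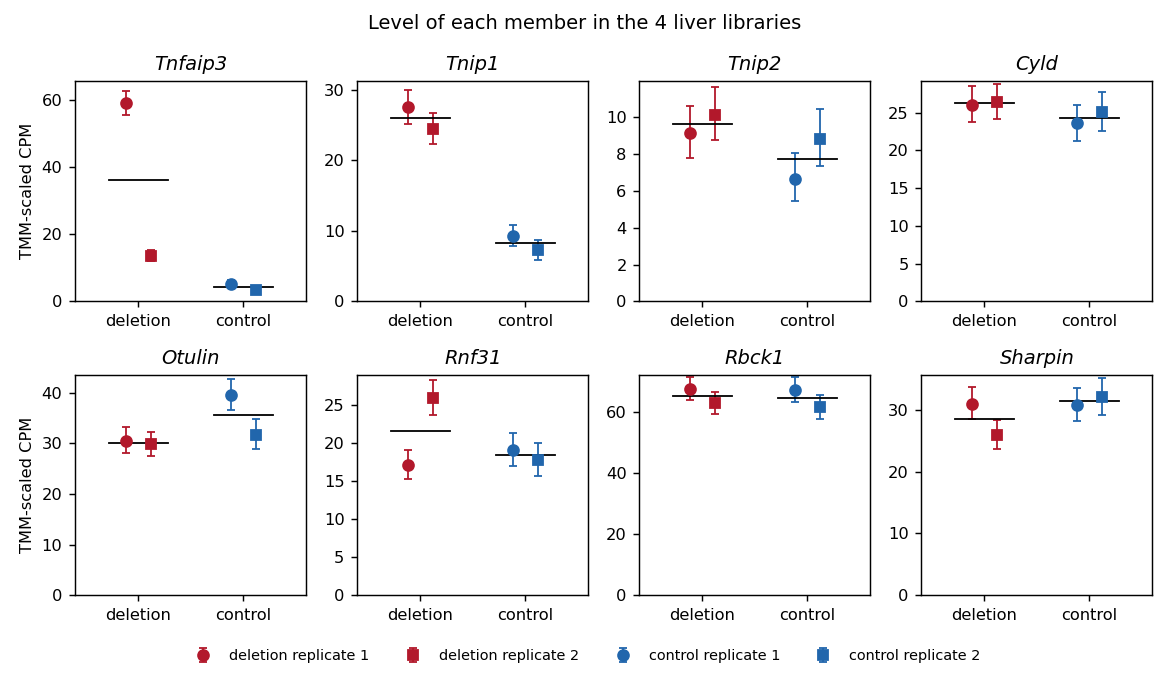
TMM-scaled CPM of each gene in deletion (red, left) and control (blue, right) libraries, with replicate 1 as circles, replicate 2 as squares, exact 95% counting intervals as error bars and group means as lines. The deletion values of Tnfaip3 are 59.1 and 13.5 CPM, far apart, while those of Tnip1 are 27.5 and 24.4 CPM, well above 9.25 and 7.21 CPM in the controls.

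Tnip1 encodes ABIN-1, which binds A20 and ubiquitin chains and limits NF-kB activation and cell death. The gene (ENSMUSG00000020400) lies on the minus strand of chromosome 11 from 54910785 to 54962917 (GRCm38). It had 501 and 475 counts in deletion replicates 1 and 2, against 150 and 105 in control replicates 1 and 2. On the CPM scale these were 27.5 and 24.4, against 9.25 and 7.21. The deletion libraries agreed within counting error, with a ratio of replicate 1 to replicate 2 of 1.13 (95% counting interval 0.99 to 1.28), and both were well above the controls. Tnip1 rose 3.15-fold (log2 fold change 1.66 ± 0.19 SE, 95% interval 1.18 to 2.13, adjusted p = 0.00973). With each library left out in turn, the log2 fold change ran from 1.49 to 1.84. The call was lost once male RNA was added to the fit as a covariate, with a log2 fold change of 1.43 (adjusted p = 0.242). In that edgeR fit 0.445% of all genes passed, and the targeted gene Ube2n also lost its call (log2 fold change -2.82, adjusted p = 0.0643).

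The gene next to the 3' end of Tnip1 is Gpx3, a secreted glutathione peroxidase, which lies tail to tail with it on the opposite strand and ends 407 bases away. Gpx3 had 34.2 and 26.1 CPM in the deletion libraries, against 7.16 and 8.38 CPM in the controls, and rose 3.88-fold (adjusted p = 0.00747). Whether the counting used strand is not given in the sources used here, and whether reads past an annotated end of either gene entered the other's count was not tested.

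Tnip2 encodes ABIN-2, the other A20-binding protein of the set, which also stabilizes the kinase TPL2. The gene (ENSMUSG00000059866) lies on the minus strand of chromosome 5 from 34496087 to 34513991. It was the least abundant gene of the set in the deletion libraries, at 9.12 and 10.1 CPM, against 6.66 and 8.79 CPM in the controls. All 4 values are close together, although the deletion libraries are both above the controls. The log2 fold change was 0.32 ± 0.24 (95% interval -0.27 to 0.90, adjusted p = 0.475). Its interval lies below that of Tnip1, but the difference between the 2 fold changes was not tested. Within a library, Tnip1 stood at 3.02 and 2.41 times the CPM of Tnip2 in the deletion group, against 1.39 and 0.82 times in the control group. A related A20-binding gene, Tnip3, had 0 and 6 counts in the deletion libraries, against 0 in each control, and was below the filter.

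Tnfaip3 encodes A20, which combines a deubiquitinase domain with ubiquitin-binding zinc fingers and ends NF-kB signalling. The gene (ENSMUSG00000019850) lies on the minus strand of chromosome 10 from 19000910 to 19015657, and its last exon, exon 9, runs from 19000910 to 19003015. It had 1076 and 263 counts in deletion replicates 1 and 2, against 82 and 48 in control replicates 1 and 2. On the CPM scale these were 59.1 and 13.5, against 5.06 and 3.30. Both deletion libraries were above both controls, but deletion replicate 1 stood at 14.2 times the control mean and deletion replicate 2 at 3.24 times. The ratio between the deletion libraries was 4.37 (95% counting interval 3.81 to 5.02), far beyond counting error.

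The log2 fold change of Tnfaip3 was 3.11 ± 0.70 (95% interval 1.40 to 4.82), which did not pass (adjusted p = 0.0568). Leaving out deletion replicate 2 gave a log2 fold change of 3.82, and leaving out deletion replicate 1 gave 1.68. It was 3.45 without control replicate 1 and 2.84 without control replicate 2. Each of these fits leaves 1 library in a group and cannot measure that group's spread, so only effect sizes are given. The fit with male RNA as a covariate gave 0.33 (adjusted p = 0.841). That covariate, the Y-linked CPM relative to the control mean, was 0 and 0.613 in deletion replicates 1 and 2, against 0.969 and 1.03 in the controls, so it also differs between the deletion libraries. The part of sex in their gap was not tested.

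**Figure D2:**
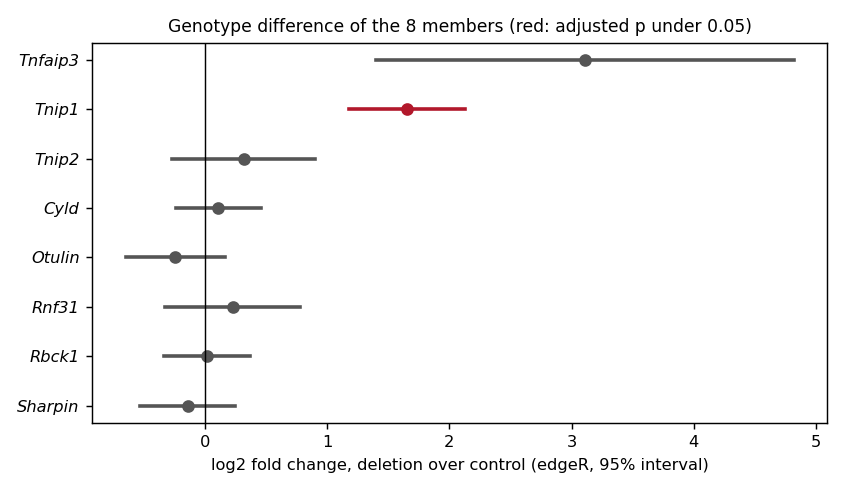
Log2 fold change of each gene, deletion over control, with its 95% interval from the edgeR fit; red marks an adjusted p under 0.05. The interval of Tnip1 (1.18 to 2.13) and that of Tnfaip3 (1.40 to 4.82) lie above 0, while those of the other 6 genes cross it.

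CYLD removes lysine 63-linked and linear chains from signalling complexes and is known as a tumour suppressor. Cyld (ENSMUSG00000036712) lies on the plus strand of chromosome 8 from 88697028 to 88751945. It had 26.0 and 26.4 CPM in the deletion libraries, against 23.6 and 25.0 CPM in the controls. The deletion libraries were above the controls by a margin within counting error. Its log2 fold change was 0.11 ± 0.14, and the 95% interval of -0.24 to 0.46 leaves room for a modest change either way (adjusted p = 0.698).

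OTULIN is the deubiquitinase dedicated to linear chains and keeps LUBAC from ubiquitinating itself. Otulin (ENSMUSG00000046034) lies on the minus strand of chromosome 15 from 27542635 to 27630693. It had 30.5 and 29.8 CPM in the deletion libraries, against 39.6 and 31.7 CPM in the controls. Both deletion libraries were below both controls, while the controls differed from each other by a ratio of 1.25 (95% counting interval 1.10 to 1.41). The log2 fold change was -0.24 ± 0.17 (95% interval -0.65 to 0.16, adjusted p = 0.431), and it was 0.05 with library sizes alone, a scaling that moved the median of all genes by 0.29. The opposite-strand gene Ank overlaps the 3' part of the Otulin locus, though not the last exon of its main coding transcript, and without known strand use their reads may mix.

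The 3 LUBAC genes did not pass in either direction. Their summed level was 115.9 and 114.9 CPM in the deletion libraries, against 117.3 and 111.5 CPM in the controls (115 ± 0.73 CPM, against 114 ± 4.1 CPM, SD, n = 2 each). The single genes varied more than their sum, above all Rnf31.

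Rnf31 encodes HOIP, the only ligase known to make linear chains. The gene (ENSMUSG00000047098) lies on the plus strand of chromosome 14 from 55591708 to 55603693. It had 17.1 and 25.9 CPM in deletion replicates 1 and 2, against 19.0 and 17.7 CPM in the controls. Deletion replicate 2 was above the rest and deletion replicate 1 was the lowest of the 4, so the groups overlap. The ratio of deletion replicate 1 to replicate 2 was 0.66 (95% counting interval 0.57 to 0.76). The log2 fold change was 0.23 ± 0.23 (95% interval -0.32 to 0.78, adjusted p = 0.598), and it was -0.11 without deletion replicate 2.

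The last exon of Rnf31 shares 123 bases (55603571 to 55603693) with Irf9, an interferon signalling gene on the same strand. Irf9 had 49.4 and 45.8 CPM in the deletion libraries, against 29.1 and 34.1 CPM in the controls (log2 fold change 0.59 ± 0.16, adjusted p = 0.0809). Reads from the shared bases cannot be assigned to one gene, so single values of Rnf31 are uncertain.

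Rbck1 encodes HOIL-1, a LUBAC subunit with ligase activity of its own, and was the most abundant of the set in both groups. The gene (ENSMUSG00000027466) lies on the minus strand of chromosome 2 from 152316334 to 152332653. It had 67.8 and 63.0 CPM in the deletion libraries, against 67.5 and 61.7 CPM in the controls. The groups interleave. The log2 fold change was 0.02 ± 0.15 (95% interval -0.34 to 0.37, adjusted p = 0.959).

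Sharpin encodes the third LUBAC subunit, whose loss in mice causes dermatitis and inflammation of several organs. The gene (ENSMUSG00000022552) lies on the minus strand of chromosome 15 from 76347040 to 76351111. It had 31.0 and 25.9 CPM in the deletion libraries, against 30.8 and 32.1 CPM in the controls. Deletion replicate 2 was the lowest, and deletion replicate 1 lay between the controls. The log2 fold change was -0.14 ± 0.16 (95% interval -0.53 to 0.25, adjusted p = 0.647), and it was 0.15 with library sizes alone.

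Because a 3' library reads about one stretch per transcript, CPM was set side by side between genes without division by length, as an approximation on the level scale. In the controls Rbck1 was highest at 64.6 ± 4.1 CPM (SD, n = 2), followed by Otulin at 35.7 ± 5.6, Sharpin at 31.4 ± 0.92, Cyld at 24.3 ± 1.0, Rnf31 at 18.4 ± 0.90, Tnip1 at 8.23 ± 1.44, Tnip2 at 7.73 ± 1.51 and Tnfaip3 at 4.18 ± 1.25 CPM. Otulin and Sharpin overlapped there, as did Tnip1 and Tnip2. In the deletion libraries Rbck1 was again highest at 65.4 ± 3.3 CPM and Tnip2 lowest at 9.63 ± 0.72 CPM. Tnfaip3 averaged 36.3 ± 32.2 CPM there, the second highest of the 8 in deletion replicate 1 and the second lowest in deletion replicate 2. Otulin at 30.2 ± 0.50, Sharpin at 28.5 ± 3.6, Cyld at 26.2 ± 0.25, Tnip1 at 26.0 ± 2.2 and Rnf31 at 21.5 ± 6.2 CPM each overlapped a neighbour in that order.

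The make-up of the set differed by library. Tnfaip3 made up 22.0% and 6.18% of the summed CPM of the 8 genes in deletion replicates 1 and 2, against 2.51% and 1.76% in the controls. Tnip1 made up 10.3% and 11.2%, against 4.59% and 3.85%. The 3 deubiquitinases of the set shifted in proportion: Tnfaip3 stood at 2.27 and 0.513 times the CPM of Cyld in the deletion libraries, against 0.215 and 0.132 times in the controls, and at 1.94 and 0.454 times the CPM of Otulin, against 0.128 and 0.104 times.

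Genes were also ranked by how closely their log2 CPM followed Tnfaip3 over the 4 libraries, each gene centred on its own mean, as a description with no test. The closest was Cxcl1, a neutrophil-attracting chemokine, with 75.8 and 18.3 CPM in the deletion libraries, against 8.08 and 4.60 CPM in the controls, at a distance of 0.226 on the log2 scale. Lif, a cytokine of the interleukin 6 family, followed at 0.373, Pmaip1 (the cell death protein NOXA) at 0.544, the receptor Tlr2 at 0.625 and the NF-kB subunit Relb at 0.628. All 5 were higher in deletion replicate 1 than in replicate 2. Of these, Tlr2 (adjusted p = 0.0424) and Relb (0.0406) passed the test, and both lost their calls when deletion replicate 1 was left out (adjusted p = 0.101 and 0.085).

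The genes closest to Tnip1 were others. They were Akr1b10 (an aldo-keto reductase, distance 0.0736), Pdzrn3 (0.0901), Gm6450 (0.104), the anion exchanger Slc26a6 (0.143) and Cdc42se1 (0.148). Cdc42se1, the most abundant of these, had 67.7 and 63.6 CPM in the deletion libraries, against 25.7 and 20.3 CPM in the controls. Gm6450 rested on 11 counts in each deletion library, against 2 and 1 in the controls. With 4 libraries many genes share a shape like that of Tnip1.

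**Figure D3:**
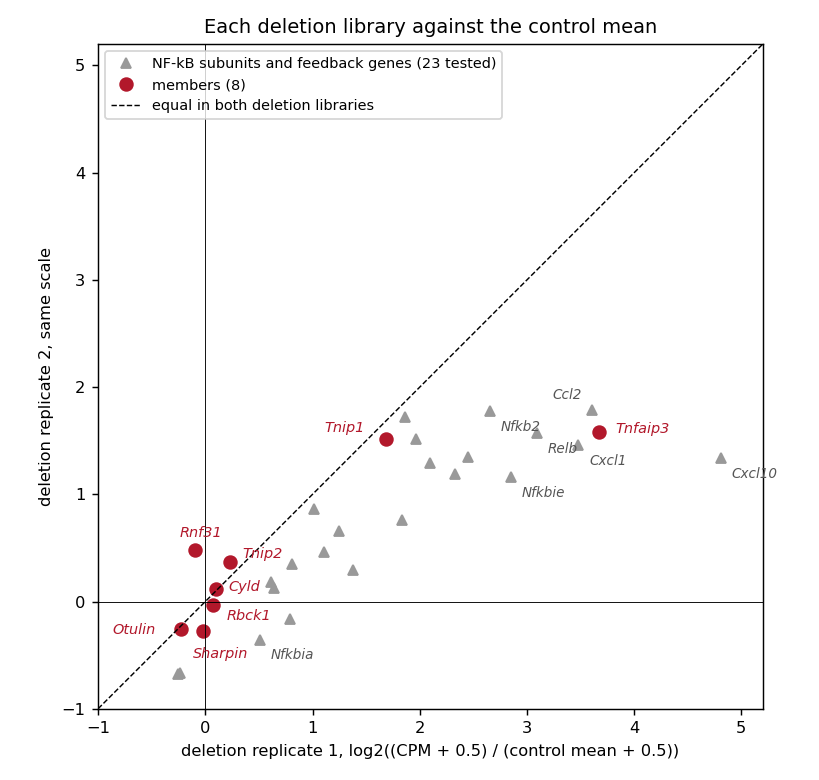
Log2 of the CPM in deletion replicate 1 (horizontal) and replicate 2 (vertical) over the control mean, with 0.5 CPM added to both, for the 8 genes (red circles) and 23 tested NF-kB subunits and feedback genes (grey triangles). Tnip1 lies near the dashed line of equal values, while Tnfaip3 lies far to its right beside Cxcl1, Ccl2 and Relb.

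Another 103 genes of the pathway, in 6 lists, were described beside the 8. Of the 98 tested, 18 rose (18.4%, against 4.41% of all genes) and 1 fell (1.02%, against 2.16%), with a median log2 fold change of 0.41. The count higher was 26 when control replicate 1 was left out (7.08% of all genes were then higher), 27 for control replicate 2 (7.63%), 7 for deletion replicate 1 (2.2%) and 16 for deletion replicate 2 (1.59%). Among the 19 called, 7 kept their call in all 4 of these fits. With male RNA as a covariate, Cd14 was the only one of the 19 still called, while 0.445% of all genes were.

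Among 17 tested builders of the chains and their ligases, Ube2n fell and 3 genes rose (4.41% of all genes rose and 2.16% fell). The A20 partner Rnf11 rose by 0.78 on the log2 scale (adjusted p = 0.0314), the ligase Birc3 (cIAP2) by 1.16 (0.0417) and the adaptor ligase Traf3 by 1.24 (0.0446). All 3 lost their calls when deletion replicate 1 was left out. The count higher was 5 when control replicate 2 was left out and 1 for deletion replicate 2. Ube2l3, the conjugating enzyme that works with LUBAC, had 78.8 and 65.3 CPM in the deletion libraries, against 79.0 and 80.7 CPM in the controls (adjusted p = 0.624). Itch, another A20 partner, had 48.6 and 57.9 CPM, against 77.5 and 74.0 CPM (adjusted p = 0.117). The Ubc13 partner Ube2v1 was below the filter, with 9 and 5 counts in the deletion libraries, against 8 and 7.

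Among 18 adaptors, readers and kinases of the chains 0 passed with edgeR. With DESeq2 2 were higher (6.8% of all genes), and with no filter on low counts 4 were higher (6.41%). Ikbkg (NEMO), the IKK subunit that binds linear chains, had 81.8 and 100.2 CPM in the deletion libraries, against 58.4 and 58.0 CPM in the controls (log2 fold change 0.65 ± 0.16, adjusted p = 0.0717). Optn (optineurin), another reader of linear chains, had 79.9 and 80.3 CPM, against 84.0 and 79.0 CPM. Ripk1, the kinase that carries these chains in the TNF receptor complex, had 36.3 and 28.7 CPM, against 28.9 and 34.1 CPM (adjusted p = 0.919). The list's median log2 fold change was 0.01.

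Among 14 other deubiquitinases and their adaptors, Otud7b (Cezanne), an A20 relative, rose by 0.82 on the log2 scale (adjusted p = 0.047), with 68.3 and 58.7 CPM in the deletion libraries, against 39.5 and 32.5 CPM in the controls. It kept the call in 1 of the 4 fits with a library left out (adjusted p up to 0.174). Spata2, which bridges CYLD to HOIP, had 19.1 and 11.8 CPM, against 11.0 and 11.9 CPM. Its relative Spata2l had 23.0 and 41.6 CPM, against 65.3 and 64.6 CPM, with both deletion libraries below the controls (log2 fold change -1.01 ± 0.28, adjusted p = 0.0924). The median was 0.14.

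Upstream, 3 of 14 tested receptors, ligands and adaptors rose, against 4.41% of all genes. Cd14, the endotoxin co-receptor, rose by 4.38 on the log2 scale, Tnfrsf12a (the TWEAK receptor) by 2.53 and Tlr2 by 2.86. Cd14 went the other way from Tnfaip3 between the deletion libraries, with 51.1 and 92.1 CPM in replicates 1 and 2, against 3.02 and 3.85 CPM in the controls. The TNF receptor gene Tnfrsf1a had 102.1 and 121.0 CPM, against 77.2 and 60.5 CPM (adjusted p = 0.0832). Tnf itself, with 22 and 6 counts in the deletion libraries, against 6 and 3, was below the filter. The count higher was 5 with control replicate 1 or control replicate 2 left out and 2 with deletion replicate 1 left out.

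Among 23 tested NF-kB subunits and feedback genes 7 rose, against 4.41% of all genes. They were Cxcl16, Nfkb2, Il1rn and Icam1, which had the lowest p values, and Ier3, Relb and Bcl3. The noncanonical subunit Nfkb2 had 65.6 and 35.6 CPM in the deletion libraries, against 10.1 and 9.96 CPM in the controls (log2 fold change 2.34 ± 0.31, adjusted p = 0.0137). Nfkbia, the classical inhibitor that NF-kB also induces, had 92.2 and 50.4 CPM, against 56.5 and 72.7 CPM, so its groups overlap (adjusted p = 0.823). Over the control mean, with 0.5 CPM added, the list's median log2 level was 1.84 for deletion replicate 1 and 0.86 for replicate 2. The count higher was 12 or 13 with control replicate 1 or 2 left out, 3 with deletion replicate 1 left out and 11 with deletion replicate 2 left out.

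Of 12 cell death genes 4 rose, against 4.41% of all genes. They were the necroptosis effector Mlkl, the nucleic acid sensor Zbp1, the mitochondrial pore protein Bak1 and the pyroptosis effector Gsdmd. Their log2 fold changes were 2.92, 2.37, 1.00 and 1.01. The caspase 8 regulator Cflar (cFLIP) had 98.0 and 89.7 CPM in the deletion libraries, against 133.1 and 157.9 CPM in the controls (adjusted p = 0.0738). The count was 2 with deletion replicate 1 left out and 1 with deletion replicate 2 left out.

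In bulk liver, fewer cells of a type and less RNA per cell cannot be told apart. Markers of some cell types also differed between the groups. Of 11 monocyte and macrophage markers 5 rose (4.41% of all genes did) and 0 fell. Their summed level was 850 and 686 CPM in the deletion libraries, against 175 and 211 CPM in the controls. Cd74 and Cybb carried most of that difference: the other 9 markers summed to 235.7 and 183.3 CPM, against 120.7 and 146.5 CPM. Of 7 Kupffer cell markers 1 rose, at summed levels of 625 and 498 CPM, against 299.5 and 410.3 CPM. Of 10 hepatocyte markers 4 fell with edgeR (2.16% of all genes did), and DESeq2 called 9 lower (4.48% of all genes). All 10 were lower without overlap, as were 27.3% of all genes, and their sum was 65370 and 59560 CPM, against 158600 and 156000 CPM. Alb carried most of that sum, with 45310 and 42890 CPM, against 119000 and 115000 CPM (edgeR adjusted p = 0.0612). Hnf4a changed least of the 10, with 632 and 651 CPM, against 690 and 788 CPM (edgeR adjusted p = 0.52). The defining neutrophil marker Ly6g had 0 counts in all 4 libraries, and the 7 neutrophil markers summed to 9.23 and 7.51 CPM, against 2.34 and 5.15 CPM. Markers of T and NK cells summed to 10.4 and 6.12 CPM, against 5.18 and 7.49 CPM, and those of B cells to 7.03 and 6.07 CPM, against 5.49 and 7.90 CPM, both overlapping. Cholangiocyte markers summed to 1365 and 1963 CPM, against 123.2 and 76.3 CPM. Spp1 had 1327 and 1916 CPM of this, against 50.4 and 52.5 CPM, while Krt19 had 2.91 and 3.96 CPM, against 39.2 and 3.23 CPM. Of 7 sinusoidal endothelial and 8 stellate cell markers edgeR called 0 in either direction, while DESeq2 called 1 endothelial marker lower and 0 stellate markers. The part of these cells in the levels of Tnip1 and Tnfaip3 was not tested.

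**Figure D4:**
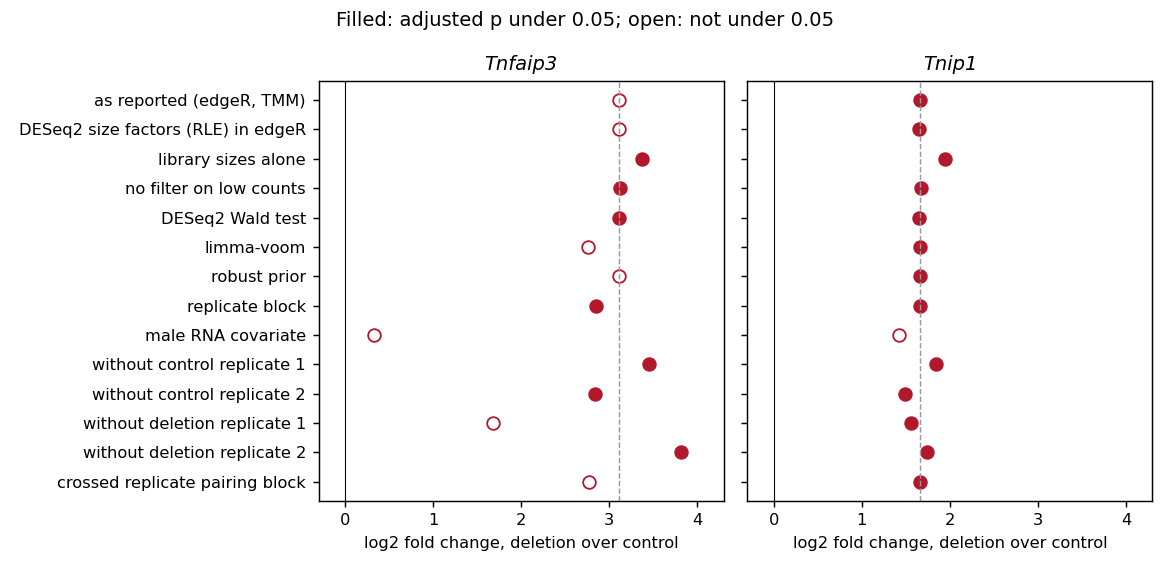
Log2 fold change of Tnfaip3 (left) and Tnip1 (right), deletion over control, as reported (top, dashed line) and under 13 alternatives; filled points have an adjusted p under 0.05. Tnip1 stays between 1.43 and 1.94, and Tnfaip3 runs from 0.33 to 3.82.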

How the data were processed

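Liver RNA was read as QuantSeq 3' libraries, single-end 75 bp, aligned with Bowtie2 and tested with edgeR (TMM and CPM), as the labels' protocols state. Builds mm10 and GRCm38 come from the submitters' processing notes. No source used here names the counting program, its strand setting or its annotation. Per the labels, the authors deposited raw counts per Ensembl gene in 4 columns. Symbols were matched by identifier through GENCODE M21 names for 52029 of 56953 rows; rows without a symbol held up to 0.233% of a library.

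Groups were compared with the two-sided quasi-likelihood test of edgeR 4.0.16 in R 4.3.3, genotype as the only term, TMM scaling, filterByExpr defaults (minimum count 10, total 15) and Benjamini-Hochberg adjustment over 14600 genes. SE was derived from the fold change and its F statistic. The test was checked on simulated counts with the same spread for every gene. That setting does not cover genes or libraries that differ within a group as these do. A fit with 1 library left out keeps 1 library in a group and does not measure the spread of that group. Calls and counts from such fits are given under that limit. Counting intervals are exact 95% intervals and cover counting error only. Libraries of a group differed beyond counting error (chi-square per degree of freedom 25.3 in deletion and 38.9 in control), so each counted as 1 replicate. An exact permutation test of 2 against 2 libraries cannot go below 0.333, and single values were not tested that way. The 8 genes and all lists were chosen with earlier results of these data known. The rule for names outside the 8 genes was every called gene of a list, up to the 4 with the lowest p in each direction, and the 5 nearest patterns to Tnfaip3 and Tnip1; others were named for their role after their values were seen. DESeq2 1.42.0 and limma-voom (limma 3.58.1) were among the alternatives.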

Additional observations from a re-analysis of the deposited data

How the results depend on the processing

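Tnip1 kept its direction under all 13 alternatives and its call under 12, the exception being male RNA as a covariate (log2 fold change 1.43). Tnfaip3 also kept its direction and passed with library sizes alone (3.38), with DESeq2 (3.12) and with the replicate block (2.85). It also passed without the filter on low counts (3.12), where the edgeR adjusted p was 3.58e-37, against 0.0568 as reported. That p stands beside a ratio of 4.37 between the deletion libraries, so it is not read as stronger evidence. Without 1 library the log2 fold change of Tnfaip3 ran from 1.68 to 3.82. Otulin (0.047) and Sharpin (0.15) turned positive with library sizes alone, Rbck1 was -0.11 with the male RNA covariate and from -0.045 to 0.080 without 1 library, and Rnf31 was -0.11 to 0.48 without 1 library. None of the 6 genes other than Tnip1 and Tnfaip3 passed under any of the 13 (adjusted p from 0.129 to 0.99). The 959 genes called (644 higher, 315 lower) became 1764 (1562 and 202) with library sizes alone, 2768 (1643 and 1125) without the filter, 1647 (993 and 654) with DESeq2, 390 (264 and 126) with the replicate block and 65 (62 and 3) with the male RNA covariate. Without 1 library they ran from 343 to 2081 (243 to 1184 higher, 100 to 897 lower). Of the 8 genes, 2 were called with library sizes alone, without the filter, with DESeq2 and with the replicate block, 0 with the male RNA covariate, and 1 to 2 without 1 library. Of the pathway genes, the 18 higher became 35, 38, 28, 11 and 1 in the same order of settings, and 7 to 27 without 1 library. The 1 lower became 4 without the filter, 3 with DESeq2, 0 with the covariate, and 1 to 4 without 1 library. The NF-kB list ranged from 0 calls with the covariate to 17 without the filter. Of the genes called, 88.5% were higher with library sizes alone, against 67.2% as reported. Same-numbered libraries deviated from their group means with a correlation over genes of -0.12. With 2 libraries per group, this value cannot show whether the numbers pair the samples. Crossed numbers, an alternative chosen after seeing the data, gave 1366 calls (1 of the 8 genes, and 26 higher and 2 lower pathway genes). The cause of these shifts was not tested. With 48 to 82 control counts of Tnfaip3, counting error alone spans 2.43 to 6.28 CPM there.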

Other observations

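Tnfaip3 was among the genes that differed most between the 2 deletion libraries. On a scale with 0.5 CPM added, its gap was 2.09 on the log2 scale, and 17 of 14600 tested genes had a larger one. Of these, 11 were higher in deletion replicate 2, among them the Y-linked Ddx3y, Eif2s3y, Kdm5d and Uty, and 6 were higher in deletion replicate 1. The 6 included the interferon-induced chemokine Cxcl10, with 97.5 and 8.34 CPM in deletion replicates 1 and 2, against 2.90 and 3.09 CPM in the controls, and the inducible nitric oxide synthase Nos2, with 8.68 and 0.978 CPM, against 0 in each control. Hamp2, a hepcidin gene, had 16.2 and 1.44 CPM, against 0.185 and 2.95 CPM, and the lipid droplet protein gene Pnpla3 had 14.0 and 2.47 CPM, against 0.802 and 1.58 CPM. None of these 17 passed the edgeR test between the groups. They were chosen, after their values were seen, for a large gap within the deletion group, which adds to the spread that this test uses. That none passed is therefore no result about these genes.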
